A study of Mus musculus with 6 samples.

Results

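The genes described here are 10 targets and modulators of Notch signalling that act in or near the mouse segmentation clock: the HES repressors Hes1, Hes5 and Hes7, the HEY repressors Hey1, Hey2 and Heyl, the fringe glycosyltransferases Lfng, Mfng and Rfng, and the feedback inhibitor Nrarp. They were chosen by name, and every probe set annotated to 1 of them was taken, which gave 16 of the 45101 probe sets on the array and 10 of the 18193 genes named on it. E14 mouse embryonic stem cells (129P2/OlaHsd background) with a Venus reporter of Msgn1 were differentiated, and 6 Affymetrix arrays measured their expression, with 3 arrays for each of day 3 and day 4. Both days shared gelatin-coated plates and medium with 15% fetal bovine serum, 0.5% DMSO, 10 ng/mL of R-spondin3, which potentiates Wnt signalling, and 200 ng/mL of the BMP antagonist Noggin, and Venus-positive cells were sorted before RNA extraction. The labels name 1 reporter line, give no untreated or unsorted group and call the samples biological replicates without saying whether they came from separate differentiations, so the p-values measure only the spread between these samples.

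Notch receptors bind Delta or Jagged ligands on neighbouring cells, are cut within the membrane and release an intracellular domain that joins the DNA-binding protein RBPJ to switch on target genes. In the presomitic mesoderm, from which somites bud off, Notch targets are switched on and off in waves. Hes7 represses its own gene and that of Lfng, whose product modifies Notch receptors and changes their response to ligands, and these delayed negative loops form the core of the segmentation clock. Cells of a population that cycle out of step average to a steady level in bulk RNA. The labels do not say whether the sorted cells were in step. An array gives the mean level of its cells, and their phase was not measured.

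Promoter windows of 300 bases, from 250 before to 50 after an annotated start, were matched by symbol in RefSeq (GRCm38.p6) for 6 of the 10 genes, namely Hes5, Hes7, Hey2, Lfng, Rfng and Nrarp. The high-affinity RBPJ word GTGGGAA, searched on both strands, occurred in 4 of these 6 windows and in 6.38% of 32851 windows of all genes. The stretches of 30 bases around 1 match per gene are shown, with the matched word, or its reverse complement, in capitals. Nrarp had no GTGGGAA in its window and is shown at its CACGTG word (2 of the 6 windows, 7.15% of all), which in Lfng overlaps the RBPJ word by 3 bases.
Hes5, chr4:154960829-154960858, + strand: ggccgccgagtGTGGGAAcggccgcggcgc
Hes7, chr11:69120262-69120291, + strand: cctcccctcacTTCCCACatttggggctag
Hey2, chr10:30842972-30843001, - strand: gcgcggtggcaTTCCCACgcctctgccaac
Lfng, chr5:140607221-140607250, + strand: ccgtatcccacGTGGGAAggagagatctcc
Nrarp, chr2:25180638-25180667, + strand: ccgccccgccccCACGTGggcaccacccaa
The N-box CACNAG, a word bound by HES proteins, occurred in 4 of the 6 windows (Hes7, Lfng, Rfng and Nrarp) and in 42.5% of all windows. A match is a run of letters and not a measured binding site.

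Values are MAS5 signals, linear intensities that the deposited table had brought to a common level (trimmed means of 160.4 to 162.1). Of the presomitic markers, Msgn1 fell from 74.6 ± 15.0 to 33.2 ± 7.06 (mean ± SD, n = 3 arrays per day, as below) and Tbx6 was at 132 ± 6.99 and 124 ± 29.5. Of 11 presomitic markers tested, Hes7 and Lfng among them, 2 were higher and 2 lower, also without day 4 replicate 1. The other fall was that of Fgf17 (-1.19 on the log2 scale), and the rises were those of Rspo3 (1.08), whose protein was also in the medium, and Meox1 (2.82), a gene of forming somites (limma adjusted p = 0.011, 5.09e-05 and 0.00237). Meox1 had a day 3 mean of 8.55, under the filter level given below, and was tested only through its day 4 signals. With its day 3 values raised to that level, the rise was at least 3.96-fold. In the same list, Tcf15 had a change of -0.40 ± 0.18 and did not pass (limma adjusted p = 0.142). Tbx18 was not tested, with day means of 10.2 and 10.2. Day 4 replicate 1 stood apart in its RNA controls, where the 3′ probe set of Gapdh was 14.0 times its 5′ probe set (2.43 to 3.19 times elsewhere) and that of Actb 6.71 times (2.77 to 3.84 times elsewhere). Genes were tested with limma where their brightest probe set exceeded a signal of 13.5, the 40th percentile of all probe sets, which left 12285 genes. Changes are log2 differences, day 4 minus day 3, ± SE, with p adjusted by the Benjamini-Hochberg method over all genes tested. In sorted bulk RNA, fewer cells of a type and less RNA per cell cannot be told apart.

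The signals of Hey1 and Nrarp rose between day 3 and day 4, Hey1 by about a doubling and Nrarp by less and only on the brighter of its probe sets. The core clock genes Hes7 and Lfng, the widely expressed target Hes1, the repressor Heyl and the fringe gene Rfng did not pass the test. Hes5, Hey2 and Mfng lay under the filter and were not tested. Of the 7 genes tested, 2 were thus higher and 0 lower at day 4, where 22.2% of all genes tested were called, 11.5% higher and 10.7% lower. The median change of the 7 was 0.37, against -0.01 over all genes tested. That median is the value of Nrarp itself. It was 0.12 over the 5 members tested with the mean over probe sets, 0.24 over the 4 tested with a filter at the 60th percentile, and 0.16, 0.24 and 0.22 without day 3 replicate 1, day 3 replicate 2 and day 4 replicate 2. The days did not overlap in 4 of the 7 (Hes1, Hey1, Heyl and Nrarp), where 41.4% of all genes tested had this property (20.7% with day 4 higher and 20.6% with day 4 lower). Probe set by probe set, 2 of 9 tested were higher and 0 lower, where 18.2% of all probe sets tested were called, 9.67% higher and 8.53% lower. The days did not overlap in 4 of these 9, where the share over all was 38.9%, 19.9% with day 4 higher and 19% with day 4 lower.

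**Figure D1:**
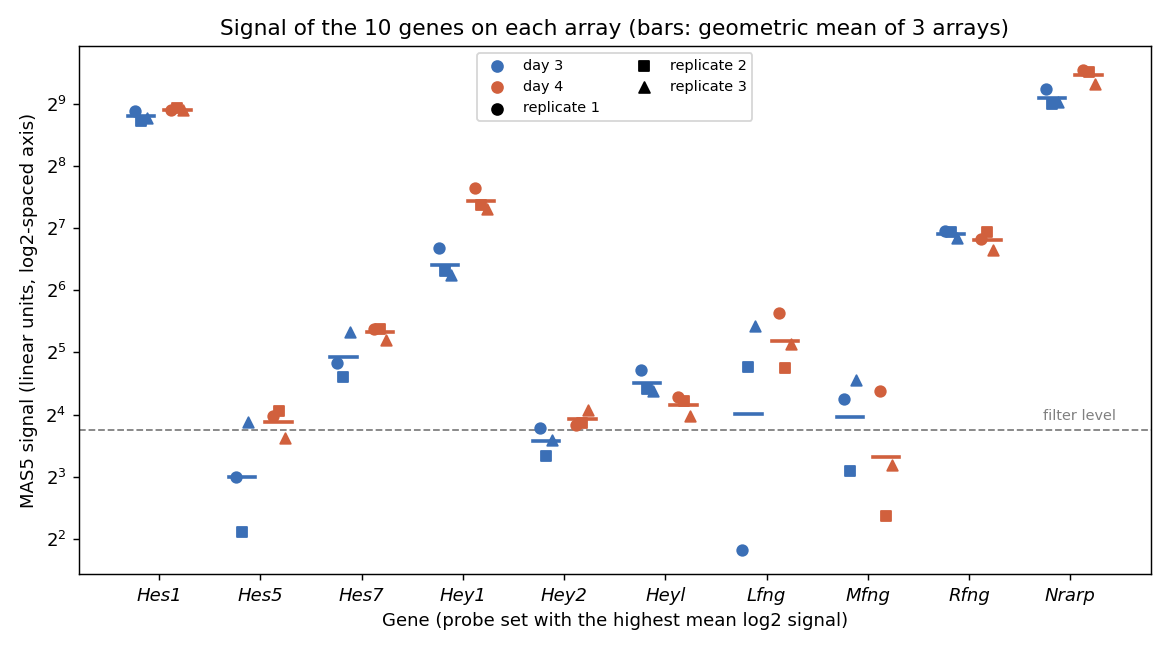
MAS5 signal (log2-spaced axis) of the brightest probe set of each of the 10 genes on the 3 day 3 arrays (blue) and the 3 day 4 arrays (orange), with symbols for replicates, bars for the geometric mean of each day and a dashed line at the filter level of 13.5. Hey1 and Nrarp lie higher on every day 4 array than on any day 3 array, and Lfng on day 3 replicate 1 lies far under its other 5 values.

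Hes1 encodes a basic helix-loop-helix repressor that many tissues use as a Notch target. Its signals were 471, 422 and 437 on the day 3 arrays and 477, 486 and 474 on the day 4 arrays. All day 4 values lay above all day 3 values, but by a small margin, and the change of 0.11 ± 0.09 did not pass (limma adjusted p = 0.408). The 95% interval of the fold change ran from 0.94 to 1.24.

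Hes7 encodes the repressor whose own negative feedback sets the rhythm of the mouse clock. The day 3 arrays gave it 28.5, 24.4 and 39.9, and the day 4 arrays 41.7, 41.7 and 36.6. Day 3 replicate 3 lay within the day 4 range and the other 2 day 3 arrays under it, so the days overlapped. The change of 0.40 ± 0.24 did not pass (limma adjusted p = 0.271), and its interval allowed anything from a 0.90-fold to a 1.92-fold level. Hes5, a Notch target best known in neural progenitors, was dim on its brighter probe set, with 7.97, 4.30 and 14.8 at day 3 and 15.7, 16.6 and 12.3 at day 4. Only 3 of these 6 values exceeded the filter level, and the days overlapped. With no filter its change was 0.89 and did not pass (limma adjusted p = 0.35). The other Hes5 probe set read 1.01 to 5.92 at day 3 and 1.92 to 9.01 at day 4. Of 11 neural markers on the array, 4 were tested, 2 of them (Sox2 and Nes) were lower and 0 higher at day 4, or 1 lower without day 4 replicate 1. Summed over those 11, the signal was 316 to 418 at day 3 and 209 to 225 at day 4. Sox2, which also stands in the list of pluripotent cell markers below, and Nes, with day means of 106 and 64.5, were the brightest of them. The neural regulators Sox1 and Neurog2 had day means of 1.70 to 4.50. Others were brighter, with day 3 and day 4 means of 155 and 90.5 for Sox2, 27.7 and 27.5 for Sox3, and 27.4 and 14.8 for Pax6. The part of these markers in the Hes5 values was not tested.

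Hey1 encodes a hairy-related repressor of the Notch pathway that is found in the anterior presomitic mesoderm and somites and also in heart and vessels. The day 3 arrays read 102, 79.1 and 76.1 for Hey1, and the day 4 arrays 201, 165 and 158. The lowest day 4 value exceeded the highest day 3 value by more than the spread within either day. The mean rose from 85.7 ± 14.1 to 175 ± 23.0, a change of 1.03 ± 0.16 (limma adjusted p = 0.00191), which is 2.04-fold with a 95% interval of 1.60 to 2.61. The highest day 4 value belonged to replicate 1, the array with the high 3′ to 5′ ratios, and without that array the change was 0.93 (limma adjusted p = 0.00152). Hey1 passed under all 16 alternatives run, with changes of 0.93 to 1.16. It had no second probe set, so the mean over probe sets and the choice by suffix could not alter its change. The other filters, the fit without the trend and the replicate block also left that change as it was.

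Hey2, a close relative with roles in heart and arteries, was dim, with 13.8, 10.1 and 12.1 at day 3 and 14.2, 14.5 and 16.9 at day 4. The days did not overlap, but the geometric mean of 13.4 fell just under the filter, and with no filter the change of 0.35 did not pass (limma adjusted p = 0.64). Heyl, the third HEY gene, pointed the other way on its brightest probe set, with 26.2, 21.3 and 20.7 at day 3 and 19.4, 18.7 and 15.7 at day 4. Its days did not overlap either, and the change of -0.34 ± 0.29 did not pass (limma adjusted p = 0.433). The other 2 Heyl probe sets read 2.25 to 28.0 at day 3 and at most 11.3 at day 4, with no separation of the days.

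Markers of other cell types differed between the days in both directions. Of 12 cardiac and lateral plate markers, 11 were tested, 5 were higher (Hand2, Tbx20, Isl1, Myl7 and Gata4) and 1 lower (Gata6). Their summed signal was 1015 to 1108 at day 3 and 1587 to 1743 at day 4. Of 12 endothelial and blood markers, 5 were tested, 1 was higher (Kdr, the VEGF receptor that mesoderm progenitors also carry) and 1 lower (Etv2). Their sum was 698 to 725 at day 3 and 718 to 978 at day 4. The endothelial genes Pecam1, Tie1 and Tek stayed under the filter level on all 6 arrays. Cdh5 read 18.5, 20.2 and 19.2 at day 3 and 15.9, 12.2 and 7.30 at day 4 (limma adjusted p = 0.192), Esam exceeded the filter level on 2 day 3 arrays and 1 day 4 array, and Emcn on 1 day 4 array. Other lists moved too. Of 10 pluripotent cell markers tested, 6 were lower and 0 higher (5 and 0 without day 4 replicate 1), with a median change of -0.69. Of 7 endoderm markers, 3 were lower and 0 higher (3 and 1 without that array), and of 4 smooth muscle markers 2 were lower and 1 higher. Sox2 and Gata6 each stand in 2 of these lists, and no marker of these lists was listed at 0. The part of these markers in the rise of Hey1 was not tested.

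The fringe enzymes add a sugar to O-fucose on Notch receptors and shift their response between Delta and Jagged ligands. Lfng, the fringe gene that cycles in the mouse clock, read 3.53, 27.1 and 43.0 at day 3 and 49.9, 26.9 and 35.2 at day 4. Day 3 replicate 1 was lower than every other array, and both other day 3 values lay within the day 4 range. The fitted change of 1.17 ± 0.78 did not pass (limma adjusted p = 0.314) and its interval ran from 0.67-fold to 7.58-fold. Without day 3 replicate 1 the change was 0.08, and without day 3 replicate 3 it was 1.89. The second Lfng probe set was dim on all arrays, at 0.89 to 1.36 at day 3 and 0.74 to 1.97 at day 4. Rfng, a fringe gene expressed at steady levels in many tissues, read 124, 122 and 114 at day 3 and 113, 122 and 100.2 at day 4, a change of -0.11 ± 0.13 (limma adjusted p = 0.602) with an interval of 0.76-fold to 1.14-fold. Mfng, the third fringe gene, scattered about the filter level, with 19.0, 8.56 and 23.5 at day 3 and 20.7, 5.15 and 9.15 at day 4. With no filter its change was -0.66 and did not pass (limma adjusted p = 0.571).

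Nrarp encodes an ankyrin repeat protein that is induced by Notch and lowers the level of the Notch intracellular domain. Its brighter probe set read 601, 508 and 523 at day 3 and 744, 731 and 639 at day 4. The days did not overlap, and the mean rose from 544 ± 49.8 to 705 ± 57.0, a change of 0.37 ± 0.10 (limma adjusted p = 0.0284) or 1.30-fold with an interval of 1.10 to 1.52. The second probe set read 128, 113 and 100.3 at day 3 and 146, 83.9 and 90.7 at day 4, with overlapping days and a change of -0.13 ± 0.22. Its day 4 replicate 1 value was the highest of all 6 and its other 2 day 4 values were the lowest. The changes of the 2 probe sets differed by 0.50, or 0.32 without day 4 replicate 2 and 0.71 without day 4 replicate 1 (exact 2-sided permutation p = 0.2, adjusted p = 1 over 7 pairs of probe sets, where 0.1 is the smallest that 3 against 3 arrays allow). The call for Nrarp was lost with the mean over its probe sets (change 0.12), with arrays centred on their medians, without the variance trend, and on leaving out 1 of 3 arrays, namely the day 3 arrays of replicates 2 and 3 and the day 4 array of replicate 2 (adjusted p = 0.11, 0.112 and 0.0941).

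**Figure D2:**
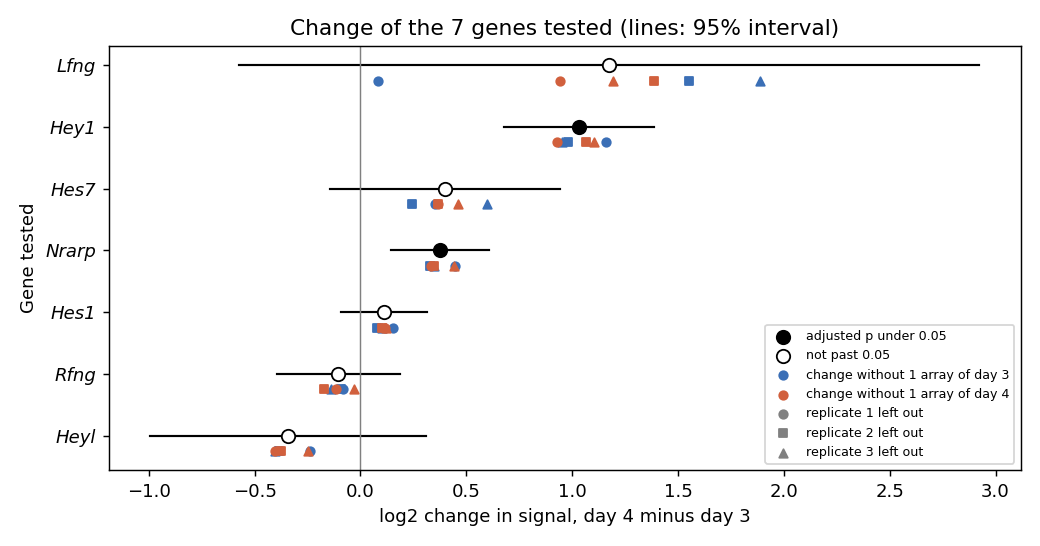
Log2 change in signal, day 4 minus day 3, of the 7 genes tested (large circles, filled where the adjusted p is under 0.05) with 95% intervals, and underneath, the change when 1 array is left out (blue for a day 3 array, orange for a day 4 array, with symbols for the replicate). Hey1 stays between 0.93 and 1.16, whereas Lfng moves between 0.08 and 1.89.

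The change of Hey1 was also set against that of each other gene tested, as the difference of log2 signals on each array. It exceeded the changes of Hes1, Hes7, Nrarp, Rfng and Heyl by 0.92, 0.63, 0.66, 1.14 and 1.37. In each of these 5 comparisons the days did not overlap, and each had an exact 2-sided permutation p = 0.1, the smallest possible, and an adjusted p = 0.12 over 6 comparisons. The difference from Hes7 was 0.36 without day 3 replicate 3, and with the mean over probe sets that from Heyl was 1.39 with an exact permutation p = 0.3. Against Lfng the difference was -0.14 (exact permutation p = 1). It ran from -0.93 (without day 3 replicate 3) to 1.08 (without day 3 replicate 1) when an array was left out and was 0.40 with the mean over probe sets. The exact test over 3 against 3 arrays cannot go under 0.1, and no model was fitted to these differences. The 6 comparisons share the same Hey1 values, so they are not independent. Hey1 also had the smallest adjusted p of the members tested in these same data, which favours a separation of the days in these differences.

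The spread between replicates was wide for Lfng and near or under that of genes of similar signal for the other 6 genes tested. The residual SD of Lfng was 1.39 on the log2 scale, against a median of 0.38 among the dimmest of 4 equal classes of genes by signal, and 0.55% of that class had a larger value. Its day 4 SD alone, 0.45, was exceeded by 33.7% of the class, so the width came from day 3, where the highest signal was 12.2 times the lowest. Hes7 and Heyl, in the same class, had residual SDs of 0.27 and 0.17, which 75.2% and 92.4% of the class exceeded. Hes1 was among the tightest genes of its own class, with a residual SD of 0.06 against a median of 0.15 and day 4 signals within 1.03-fold of each other. Hey1, Rfng and Nrarp had 0.21, 0.11 and 0.12, against medians of 0.21, 0.21 and 0.11 in their classes.

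**Figure D3:**
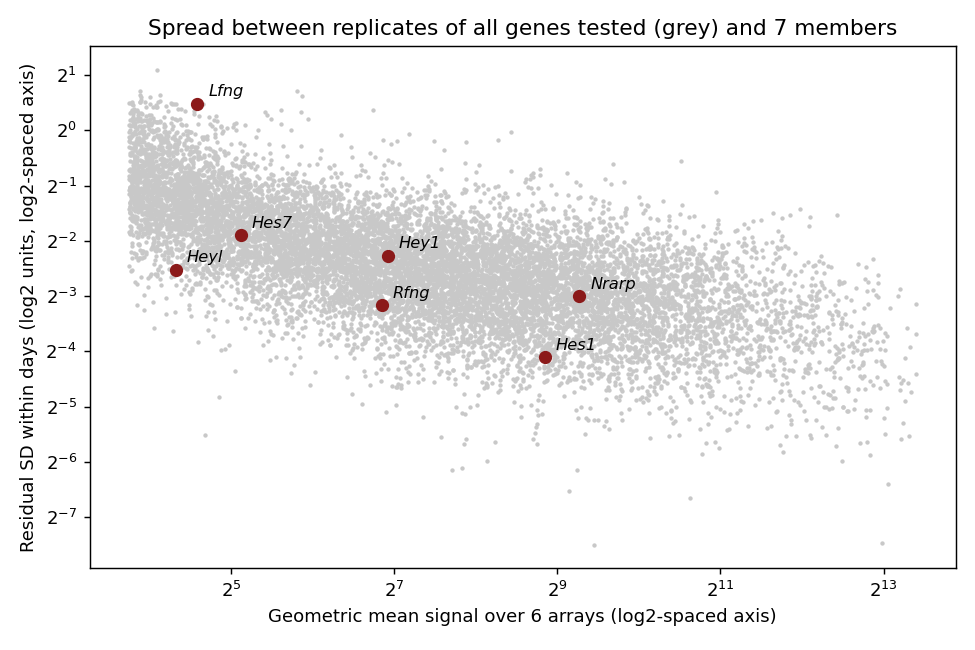
Residual SD within days (log2 units, log2-spaced axis) against the geometric mean signal over 6 arrays (log2-spaced axis) for the 12285 genes tested (grey) and the 7 genes described here (red). Lfng, at 1.39, lies at the upper edge of the cloud at its signal, and Hes1, at 0.06, near the lower edge.

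Some genes shared their highest or lowest array within a day. Hes7 and Hes5 were both lowest on replicate 2 and highest on replicate 3 of day 3, and both lowest on replicate 3 of day 4. Hes1, Hey1, Heyl, Rfng and Nrarp were highest on replicate 1 of day 3 and lowest on replicate 3 of day 4. Hey1 and Heyl shared the whole order, falling from replicate 1 to replicate 3 on both days. Hes1, Rfng and Nrarp differed from these and from each other in the order of their other arrays. Hey2, Lfng and Mfng shared neither pattern, with Lfng lowest on replicate 1 of day 3, Hey2 highest on replicate 3 of day 4 and Mfng lowest on replicate 2 of both days. Over the 10 genes, day 3 replicate 1 was the highest of its day for 6 and day 4 replicate 3 the lowest of its day for 7. Over all genes tested, those shares were 40.6% and 30.6%. The genes whose signals followed those of Lfng most closely over the 6 arrays were Art1, Arhgef10 and Gm38983 (Pearson r of 0.99 each, no test), and for Hes7 they were Dcp1a, Myo1g and Shd (0.98, 0.98 and 0.97). These are descriptions over 6 points, in which 45 of the genes tested exceeded 0.95 with Lfng and 9 with Hes7. For Lfng, r rests largely on day 3 replicate 1, where it read 3.53 against 26.9 to 49.9 on the other arrays.

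Upstream of these targets, the counts of genes called in each list are to be read against the 22.2% called among all genes tested. Of 6 Notch ligands tested, 0 passed with limma, and the brightest, Dll3, was at 969 ± 81.9 and 1126 ± 82.3 (adjusted p = 0.125). Of 4 receptors, 2 were higher and 0 lower, Notch3 by 0.75 ± 0.10 and Notch1 by 0.36 ± 0.10 (limma adjusted p = 0.000832 and 0.0268). Notch1 lost its call in 6 of 16 alternatives, among them 4 that left out an array (any array of day 3, and replicate 3 of day 4, with adjusted p as high as 0.106), and no difference between lists was tested.

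Of 17 tested genes that process Notch or form its nuclear complex, 5 were higher and 0 lower, with the same counts without day 4 replicate 1 and a median change of 0.14. Rbpj, the DNA-binding partner itself, read 588, 559 and 582 at day 3 and 842, 919 and 918 at day 4. The days were well separated, and the change was 0.63 ± 0.08 (limma adjusted p = 0.000847). Aph1a, a subunit of the γ-secretase that cuts Notch, rose by 0.52 ± 0.09, Kdm5a, a histone demethylase that works with RBPJ, by 0.58 ± 0.12, and Snw1, a cofactor of RBPJ, by 0.41 ± 0.09 (limma adjusted p = 0.00381, 0.00747 and 0.00788). These 4 calls were lost with the mean over each gene's probe sets (adjusted p of 0.0961 to 0.213), although all other tested probe sets of Rbpj, Kdm5a and Snw1 and 1 of 2 of Aph1a had the same sign. The fifth was the protease gene Adam10, whose call was lost in 6 of 16 alternatives, 5 of them without an array (any array of day 3, and replicates 2 and 3 of day 4, with adjusted p as high as 0.0767).

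Of 15 tested ubiquitin ligases and trafficking genes of the pathway, 2 were higher and 1 lower, or 3 and 1 without day 4 replicate 1. Dtx3, of the Deltex family, rose by 0.92 ± 0.17 from 106 ± 8.11 to 203 ± 43.9, and Mib2, which acts on ligands, by 0.74 ± 0.17 from 75.7 ± 12.1 to 126 ± 17.5 (limma adjusted p = 0.00482 and 0.0116). The Mib2 call was lost without day 3 replicate 3 (adjusted p = 0.0527). Nedd4l fell by 0.93 ± 0.19 (limma adjusted p = 0.00711), but its only other tested probe set had the opposite sign, at 0.20 once probe sets of the _a kind were left out.

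Of 14 tested partners and corepressors of HES and HEY proteins, 4 were higher and 3 lower, as also without day 4 replicate 1. The rises were those of Id1, Id2 and Id3, which encode inhibitors that bind basic helix-loop-helix factors and are known BMP targets, and of Tcf12, an E protein. Their changes were 0.98 ± 0.14, 2.05 ± 0.12, 1.63 ± 0.13 and 0.37 ± 0.07 (limma adjusted p = 0.00153, 9.26e-06, 5.09e-05 and 0.00528), and the calls for Id2 and Tcf12 were lost with the mean over probe sets, that of Tcf12 also without probe sets of the _x, _s and _a kinds. The falls were those of the deacetylases Hdac1 and Sirt1, by 0.45 ± 0.08 and 0.44 ± 0.10, and of Hes6, a HES relative that opposes Hes1, by 0.71 ± 0.18 (limma adjusted p = 0.0040, 0.0143 and 0.0213). Hes6 lost its call with the mean over probe sets and without any of 4 arrays, replicates 1 and 3 of day 3 and 2 and 3 of day 4 (adjusted p as high as 0.114), and Sirt1 without day 3 replicate 2 (adjusted p = 0.0624).

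**Figure D4:**
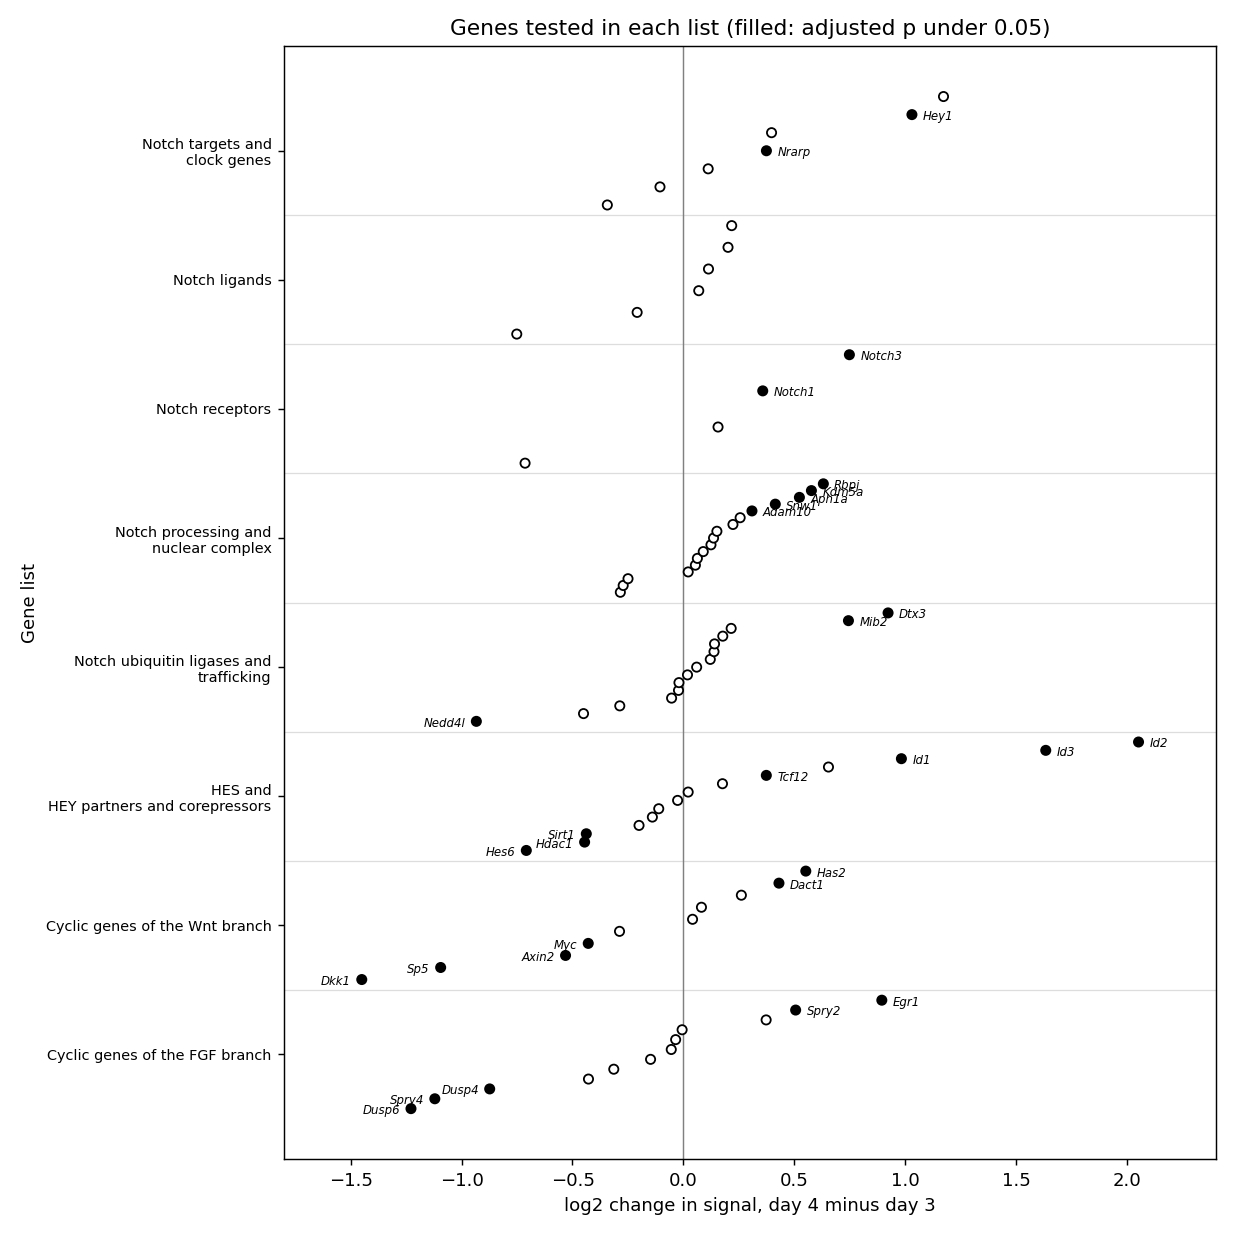
Log2 change in signal, day 4 minus day 3, of each tested gene in the lists of the Notch pathway and of the cyclic genes of the Wnt and FGF branches of the clock, with filled points where the adjusted p is under 0.05. The 5 filled points of the processing and nuclear complex list lie between 0.31 and 0.63, and the Wnt and FGF lists hold filled points on both sides of 0.

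The clock gene Hes7 is switched on by Msgn1 and Tbx6 together with Notch and FGF inputs, and Mesp2 and Ripply2 mark the place where the clock stops and a segment boundary forms. Of 7 tested genes of this regulatory group, 1 was higher (Mesp2) and 1 lower (Msgn1), or 2 and 2 without day 4 replicate 1. Msgn1 read 83.0, 57.2 and 83.4 at day 3 and 25.2, 36.2 and 38.3 at day 4, a fall of 1.17 ± 0.24 (limma adjusted p = 0.00723). Mesp2 rose by 1.65 ± 0.12 from 96.3 ± 8.08 to 301 ± 22.4 (limma adjusted p = 3.72e-05), and Ripply2, not tested, read 0.43 to 6.54 at day 3 and 39.8 to 55.7 at day 4. The days did not overlap for Msgn1 and Mesp2 and for the untested Ripply2, Cdx1 and Cdx4. They overlapped for Tbx6, Mesp1, Dll1, Dll3 and Cdx2 of the same group, and also for Hes7 and Lfng. Over all genes tested, the days did not overlap in 41.4%. No difference between this group and the clock genes was tested.

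The clock also has cyclic genes in its Wnt and FGF branches, most of them feedback inhibitors. Of 10 Wnt branch genes tested, 2 were higher and 4 lower, with the same counts without day 4 replicate 1. The scaffold gene Axin2, the classical Wnt feedback target, read 428, 463 and 444 at day 3 and 361, 310 and 260 at day 4, a fall of 0.53 ± 0.13 (limma adjusted p = 0.0155), lost without replicate 2 or 3 of day 3 (adjusted p as high as 0.0944) and with the mean over probe sets. Dkk1 and Sp5 fell by 1.45 ± 0.14 and 1.09 ± 0.12, and the Dishevelled regulator Dact1 rose by 0.43 ± 0.09 (limma adjusted p = 0.000152, 0.000302 and 0.00999). Of 12 FGF branch genes tested, 2 were higher and 3 lower, or 2 and 4 without day 4 replicate 1. The ERK phosphatases Dusp6 and Dusp4 and the inhibitor Spry4 fell by 1.23 ± 0.12, 0.87 ± 0.08 and 1.12 ± 0.14, and Egr1 rose by 0.90 ± 0.09 (limma adjusted p = 0.000193, 0.00012, 0.000558 and 0.000208). The other rise was that of Spry2, an inhibitor of the same family as Spry4, by 0.51 ± 0.10 (limma adjusted p = 0.00772). Its call was lost with the mean over probe sets, and its only other tested probe set had the opposite sign. Median changes were -0.12 in the Wnt branch and -0.10 in the FGF branch, against 0.37 in the 7 Notch targets and clock genes (0.12 with the mean over probe sets, for the 5 tested); these differences between lists were not tested.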

How the data were processed

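The deposited table held linear signal intensities, made by the authors with MAS5 per the submitters' processing notes. For the scaling target and software version, the entry is: not given in the sources used here. Log2 values of dim probe sets vary strongly between arrays after MAS5. Per the labels' protocols, cRNA was amplified in 2 rounds, which weighs signals toward 3′ ends. Log2 of the deposited signal was analysed in R 4.3.3 with limma 3.58.1 (lmFit, eBayes with trend, 2-sided tests, adjusted threshold 0.05). A gene took the values of its brightest probe set (mean log2 signal over 6 arrays), and every probe set was also tested on its own. Array-annotation symbols were updated through RefSeq Entrez identifiers (0 changed). Named genes were all 10 members, up to 4 called genes with the smallest p in each pathway list, and the brightest gene of a list with none. Msgn1, Tbx6, Mesp2 and Ripply2, and 3 genes nearest to Lfng and to Hes7, were also named. Adam10, Tcf12, Sirt1, Hes6, Spry2, Mesp1, Dll1, Cdx1, Cdx2, Cdx4 and the named cell type markers were added after their values were seen. Members and lists were chosen with earlier results of these data known. Replicate numbers are shared between days, but deviations of same-numbered arrays correlated by only 0.07, 0.01 and -0.0005, so arrays were not treated as pairs. The scripts were tested on simulated data. The alternatives were an offset, quantile normalization, median centring, other filters, probe set means, probe sets by suffix, no trend, array weights, a replicate block and leaving out each array; list counts without day 4 replicate 1 were added later.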

Additional observations from a re-analysis of the deposited data

How the results depend on the processing

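Of 107 recomputed changes of the 7 genes tested, 101 kept direction and side of the threshold, 6 (all Nrarp) no longer passed and 0 reversed. Part of this count was fixed in advance. The other filters, the choice by suffix, the fit without the trend and the replicate block left each change as it was, so no direction could reverse there. Hes1, Hes7, Heyl, Lfng and Rfng passed in no fit, so for them the same side means not called. The count of members called higher was 1 in place of 2 with median centring, with the mean over probe sets and without the trend, and 1 to 2 when an array was left out; by probe set it was 1 with median centring and without the trend, and 1 to 2 without an array. Over all genes, 1796 were called (865 higher) with the mean over probe sets and 4312 (2163 higher, 2149 lower) with array weights. Leaving out an array gave 1596 (without day 3 replicate 3) to 3524 (882 to 1736 higher, 714 to 1788 lower). With the replicate block 2884 genes and the same 2 members were called; same-numbered arrays did not deviate together. The dimmer Rfng probe set changed by -0.15, but by 0.11 with array weights and by -0.39 to 0.25 without an array, and the dimmer Nrarp probe set by -0.37 to 0.027. The change of Hey1 minus that of Lfng became 0.40 with the mean over probe sets. Differences between probe sets ran, without an array, from -0.61 to 0.99 for Hes5, from -0.29 to 0.37 for Rfng, from 0.32 to 0.71 for Nrarp, from 0.15 to 1.77 for Lfng, and for the 3 Heyl pairs from -0.74 to 0.66, from -0.91 to 0.90 and from -0.50 to 1.06. The causes were not tested. The filter was recomputed in each fit, and Hes5, Hes7, Hey2, Heyl, Lfng and Mfng have no value in some. The 3 arrays per day limit the precision for all genes. Hes5, Hey2 and Mfng lay under the filter level in the main fit, and Lfng had a residual SD of 1.39.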
